A study of Mus musculus with 24 samples.

Results

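The unfolded protein response and the integrated stress response were described through 37 genes, taken from the gene table by their symbols, out of 54532 genes in all. The list held 7 sensors and transcription factors (Atf4, Atf5, Atf6, Ddit3, Xbp1, Ern1 and Eif2ak3), 11 ATF4 targets, 14 ER chaperones and folding enzymes, and 5 genes of ER-associated degradation. The ATF4 targets were 5 stress feedback genes (Ddit4, Trib3, Chac1, Sesn2 and Ppp1r15a) and 6 enzymes of amino acid and folate metabolism (Asns, Psat1, Phgdh, Shmt2, Mthfd2 and Aldh18a1). The rule names them by symbol and applies no threshold to measured values, although the list was drawn up with earlier results of these data known. All 37 symbols were found, and 36 genes passed the filter on low values in each fit. Derl3, a member of the ER-associated degradation set, stayed at or under 0.456 FPKM in all 24 libraries and was not tested. FPKM stands for fragments per kilobase of gene, scaled to the mapped fragments. The deposited values also carried a scaling between libraries that the total gene counts do not explain.

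The study sequenced RNA of macrophages (BMDMs) and dendritic cells (BMDCs) cultured from the bone marrow of 2 mouse genotypes, the former in supernatant of L929 cells and the latter in GM-CSF plus IL-4, with and without the STING agonist DMXAA. The WT label stood for Tmem173fl/fl mice and the CRE label for Tmem173fl/flLzym-Creert2 mice, so both labels carried the floxed Tmem173 (STING) gene and both kinds of mouse were given tamoxifen, and only the CRE label carried the tamoxifen-dependent Cre under the myeloid lysozyme promoter. Control groups received no DMXAA (0 µM), and treated groups received 40 µM according to the series' design text. The study's methods give DMXAA doses for cultured cells in µg/mL, 40 µg/mL among them, so the unit is uncertain. Each of the 8 groups (cell type, label, treatment) had 3 libraries numbered 1 to 3, and the comparisons address whether the response to DMXAA depends on myeloid STING. Neither the age of the mice nor the time under DMXAA is given in the labels. Nothing in the labels says whether the numbers mark separate animals or cultures, so p-values measure only the spread between these libraries, which may be technical.

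Endoplasmic reticulum (ER) sensors respond to unfolded protein along several arms. IRE1 (Ern1) splices Xbp1 mRNA, ATF6 is cleaved into a transcription factor, and PERK (Eif2ak3) phosphorylates the translation initiation factor eIF2, which lowers general translation while ATF4 protein is made. The XBP1 and ATF6 arms are known for inducing chaperones and degradation genes, and ATF4, which other eIF2 kinases can also switch on without ER stress, for inducing amino acid enzymes, transporters and the feedback genes Ddit3 (CHOP), Trib3, Chac1 and Ppp1r15a. Macrophages and dendritic cells are secretory cells of innate immunity, and STING itself is a protein of the ER membrane.

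Total gene counts ran from 15657347 to 18912887 per library. The 4 BMDM libraries numbered 3 stood apart, with macrophage markers (8 genes) summing to 41.9 to 69.6 CPM (counts scaled to a common library total) and fibroblast markers to 15880 to 22700 CPM, against 9650 to 21560 and 62.5 to 881 CPM in the other BMDM libraries. They were therefore kept out of the fits and are shown apart. WT-labelled BMDM number 2 had the highest fibroblast marker sums of the remaining BMDM libraries, 881 CPM in control and 743 CPM under DMXAA. Plasma cell and B cell markers, relevant because such cells carry large amounts of unfolded protein response transcripts, had a median of at most 0.78 CPM in every library and summed to 30.1 to 478 CPM, nearly all of it in the BMDMs from Sdc1 (93.2 to 478 CPM), which is not confined to plasma cells. Tmem173, the targeted gene, was still counted under the CRE label, at 8.76 to 10.4 FPKM in control BMDMs numbered 1 and 2 against 9.91 and 14.7 FPKM under the WT label, and at 19.7 to 36.9 FPKM in control BMDCs against 28.8 to 51.6 FPKM. Under DMXAA it was 9.12 and 10.1 FPKM against 31.9 and 22.8 FPKM in those BMDMs. In BMDCs it was 24.3 to 35.1 FPKM against 34.6 to 55.3 FPKM. As raw counts of Tmem173, WT-labelled BMDMs 1 and 2 had 690 and 481 in control and 829 and 758 under DMXAA. A count over the whole gene does not check the deletion of an exon. CRE-labelled BMDMs 1 and 2 were the closest pair of BMDM control libraries and of BMDM DMXAA libraries, and among BMDCs the closest pairs joined the labels (CRE 1 with WT 3, and WT 2 with CRE 3), none of them within sampling noise.

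Promoters are shown for 3 members that the results turn on, each holding a motif that was searched for. Other elements of these arms were not searched for, so no promoter shown is assigned to an arm. The promoter of Hspa5 lies at chr2:34771840-34772139 on the plus strand (RefSeq, GRCm38.p6, 250 bases before and 50 after the start). Its capitals mark the ER stress response element (CCAAT, 9 bases of any kind, CCACG) and the unfolded protein response core TGACGTG. The promoters of Herpud1 (chr8:94386179-94386478, plus strand) and Chac1 (chr2:119350992-119351291, plus strand) follow, with capitals for the C/EBP-ATF element TTGCATCA, the kind of site that ATF4 binds as a heterodimer.
Hspa5: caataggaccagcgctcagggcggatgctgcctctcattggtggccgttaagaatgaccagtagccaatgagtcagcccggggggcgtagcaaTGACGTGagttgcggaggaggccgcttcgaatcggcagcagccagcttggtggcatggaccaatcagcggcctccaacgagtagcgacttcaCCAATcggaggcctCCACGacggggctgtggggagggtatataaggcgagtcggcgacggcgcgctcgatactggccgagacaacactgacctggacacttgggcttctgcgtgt
Herpud1: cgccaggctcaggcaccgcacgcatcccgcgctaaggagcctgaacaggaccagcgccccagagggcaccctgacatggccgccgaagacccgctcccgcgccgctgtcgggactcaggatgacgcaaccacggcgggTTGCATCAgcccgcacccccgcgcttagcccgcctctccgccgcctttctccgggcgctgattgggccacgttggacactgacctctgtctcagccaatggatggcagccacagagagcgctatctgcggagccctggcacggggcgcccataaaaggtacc
Chac1: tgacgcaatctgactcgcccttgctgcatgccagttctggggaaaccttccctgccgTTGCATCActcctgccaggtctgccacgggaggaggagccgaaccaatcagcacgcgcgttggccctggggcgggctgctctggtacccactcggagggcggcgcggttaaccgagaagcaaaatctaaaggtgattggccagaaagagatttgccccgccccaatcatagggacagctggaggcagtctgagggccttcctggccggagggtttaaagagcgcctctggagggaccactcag

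Counted from the start site, the ER stress response element of Hspa5 lay at -65 to -47 and the core at -157 to -151. The C/EBP-ATF element lay at -112 to -105 in Herpud1 and at -193 to -186 in Chac1. Of the 37 genes, 34 had an entry in the RefSeq promoter table (Manf, Hyou1 and Atf6 had none). Searched on both strands, the ER stress response element was found in 9 of those 34 genes (Calr, Canx, Creld2, Derl3, Dnajc3, Hsp90b1, Hspa5, Pdia6 and Syvn1) and in 0.119% of 32851 promoters in all. It was in 7 of the 12 chaperone genes with an entry and in 0 of the 11 ATF4 targets. TGACGTG was found in Hspa5 alone among the members and in 2.01% of all promoters, and TTGCATCA in Chac1 and Herpud1 and in 0.895% of all. A match is only a run of letters, and its absence says only that these letters are not in the window.

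At rest, the ATF4 targets stood higher in BMDCs by their median. The median log2 difference of WT-labelled control BMDCs over BMDMs was 1.29 over 11 genes, against -0.03 over 14 chaperones and -0.02 over all genes tested. In edgeR's quasi-likelihood test (Benjamini-Hochberg adjusted p under 0.05), 9 of 36 members were higher in BMDCs (13.1% of all genes) and 2 were lower (15.4% of all genes). Of the ATF4 targets 5 were higher and 0 lower, and of the chaperones 1 was higher and 1 lower. The 2 BMDM controls lay far apart in several ATF4 targets, so the median of 1.29 depends on both. Control number 2 stood above every WT-labelled control BMDC in Ppp1r15a (39.8 FPKM against 13.2 to 19.7) and Ddit4 (9.99 against 5.53 to 9.28). In the other ATF4 targets it stood below them, as in Asns (35.3 against 37.6 to 44.5 FPKM). In these bulk samples, fewer cells of a type and less RNA per cell cannot be told apart.

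Herpud1 (ENSMUSG00000031770, chr8:94386438-94395377, GRCm38), an ER membrane component of the degradation machinery, had the largest difference among the called members. It stood at 8.5 and 12.5 FPKM in WT-labelled control BMDMs 1 and 2 and at 51.0, 47.5 and 46.6 FPKM in WT-labelled control BMDCs, a log2 difference of 2.15 ± 0.35 (SE, adjusted p = 0.000258). Atf5, a transcription factor translated under the same eIF2 control as ATF4, stood at 25.2 and 28.1 FPKM in BMDMs and at 128, 122 and 113 FPKM in BMDCs (2.12 ± 0.21, adjusted p = 1.99e-06). Neither gene's groups overlapped. Sesn2, a sestrin of the stress response, was 1.71 ± 0.29 higher (adjusted p = 0.00038), from 4.58 and 8.95 FPKM to between 22.3 and 24.3 FPKM. The amino acid enzymes Aldh18a1 (1.67), Phgdh (1.43), Mthfd2 (1.43) and Psat1 (1.22) were also higher in BMDCs, as were Xbp1 (1.17) and the disulfide isomerase Pdia4 (1.07). Lower in BMDCs were Atf6 (-1.12 ± 0.22, adjusted p = 0.00112, with 12.1 and 9.53 FPKM in BMDMs, 4.61 to 5.49 FPKM in BMDCs) and the co-chaperone Dnajb11 (-0.50 ± 0.16, adjusted p = 0.0284).

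Atf4 (0.37, adjusted p = 0.394), Ddit3 (0.41, adjusted p = 0.614) and Hspa5 (-0.38, adjusted p = 0.125) did not pass the test between resting cell types. For Atf4 and Ddit3 the WT-labelled BMDM control libraries spanned nearly the whole range. Atf4 was 62.4 FPKM in number 1 and 179 FPKM in number 2, against 155 to 167 FPKM in the BMDCs, and Ddit3 was 7.06 and 54.9 FPKM, against 35.97 to 50.6 FPKM. The WT-labelled controls used here are also the baseline of the DMXAA comparisons, so the sets of calls are not independent of each other. With BMDM number 3 included, 3 members passed the test between resting cell types in place of 11. The share over all genes in that fit is not given, so the 3 are not a result about the members.

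**Figure D1:**
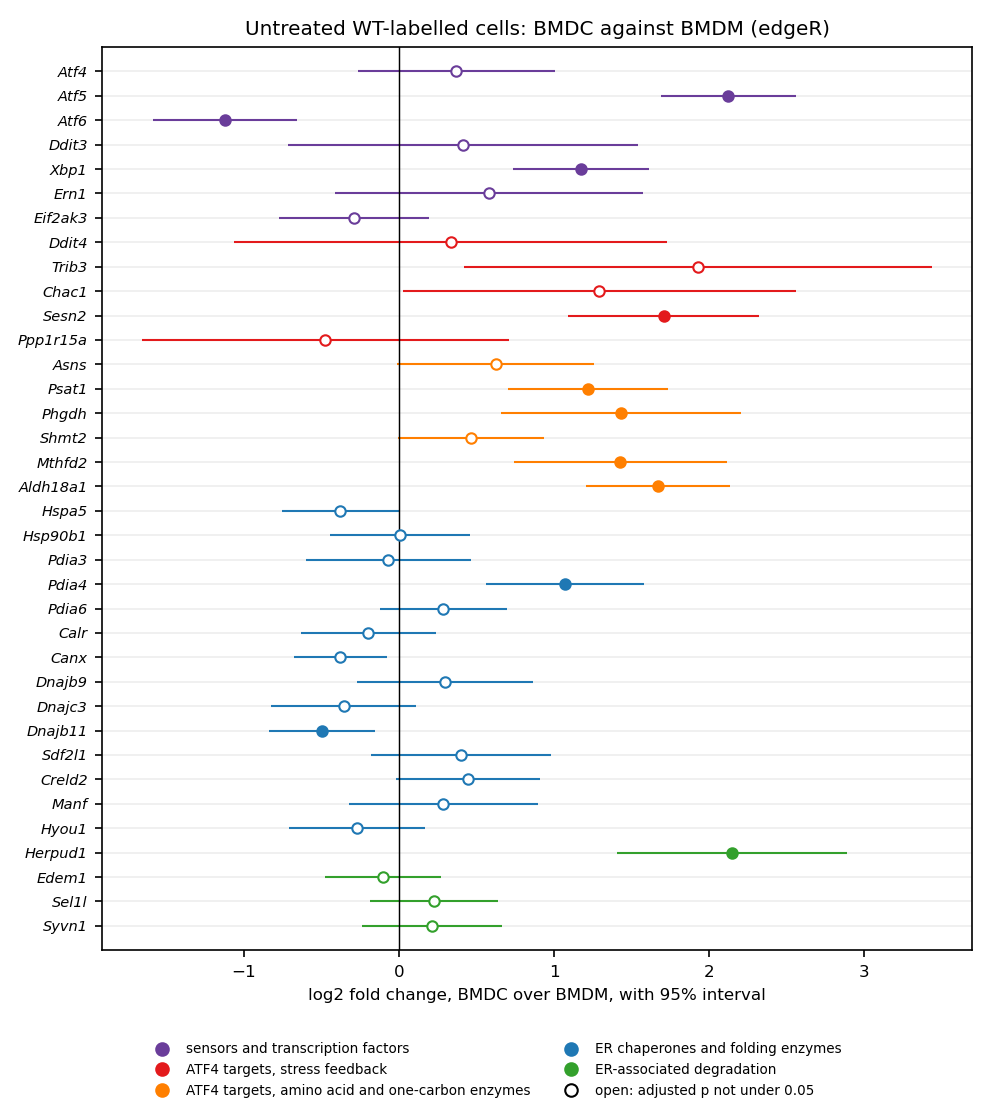
Log2 difference of WT-labelled control BMDCs over WT-labelled control BMDMs (horizontal axis, 3 and 2 libraries) for 36 members grouped by role, with 95% intervals from edgeR as bars. Filled points mark the 9 members called higher and the 2 called lower; the amino acid enzymes all lie to the right of 0, and the chaperones lie on both sides of it.

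Under DMXAA, WT-labelled BMDCs raised Ppp1r15a, Hspa5 and Dnajb11 and lowered 8 members, among them Herpud1, Aldh18a1, Shmt2, Xbp1 and Eif2ak3. The 3 of 36 members called higher compare with 17% of all genes tested, and the 8 called lower with 15.2%. Of the 11 ATF4 targets 1 was higher and 4 were lower, with a median log2 fold change of -0.63, and of the 14 chaperones 2 were higher and 0 lower, with a median of -0.04, beside 0.01 over all genes. CRE-labelled BMDCs raised 4 members (14% of all genes) and lowered 6 (11.4% of all genes), with medians of -0.60 over the ATF4 targets and 0.06 over the chaperones, beside -0.01 over all genes. Every one of the 6 pairs of same-numbered BMDC libraries had a median DMXAA to control ratio under 1 for the stress feedback genes (0.435 to 0.812) and for the amino acid enzymes (0.4995 to 0.747).

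Hspa5 (ENSMUSG00000026864, chr2:34771970-34777547) encodes BiP, the main Hsp70 chaperone of the ER, and is the gene whose promoter held both unfolded protein response motifs. Its WT-labelled BMDC values were 238, 198 and 163 FPKM in control and 379, 316 and 299.5 FPKM under DMXAA. CRE-labelled BMDCs had 165, 204 and 202 FPKM in control and 297, 410.1 and 329 FPKM under DMXAA. All treated libraries lay above all controls of either label, with log2 fold changes of 0.71 ± 0.18 (SE, adjusted p = 0.0112) and 0.84 ± 0.18 (adjusted p = 0.00598). Dnajb11, the ER co-chaperone that works with BiP, went from 36 to 44.6 FPKM in control to 53.1 to 76.6 FPKM under DMXAA in WT-labelled cells (0.68 ± 0.16, adjusted p = 0.00686) and rose by 0.67 ± 0.16 in CRE-labelled cells (adjusted p = 0.00985). The other 12 chaperones passed this unpaired test in neither label. With the replicate block described later, Dnajb9 was called lower in both labels and Creld2 higher under the CRE label (0.41, adjusted p = 0.0274). Calr, the calcium-binding lectin chaperone calreticulin, was 371, 315 and 322 FPKM in control and 449, 311 and 290.3 FPKM under DMXAA, and Hsp90b1 (GRP94) was 158, 115 and 97.4 FPKM and then 131, 105 and 95.1 FPKM. These groups overlapped.

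Ppp1r15a (ENSMUSG00000040435, chr7:45522916-45526268) encodes GADD34, the phosphatase subunit that removes the phosphate from eIF2. It showed the largest rise of any member in BMDCs. WT-labelled values were 13.2, 16.7 and 19.7 FPKM in control and 79.4, 63.3 and 90.9 FPKM under DMXAA (2.21 ± 0.27, adjusted p = 0.000123), and CRE-labelled values were 18.0, 31.7 and 17.7 FPKM and then 85.6, 63.0 and 63.2 FPKM (1.63 ± 0.26, adjusted p = 0.00107). Treated and control libraries did not overlap. The other feedback genes did not share this direction. Ddit4, an inhibitor of mTORC1 signalling, fell from 5.53, 6.93 and 9.28 FPKM to 4.06, 2.96 and 3.55 FPKM in WT-labelled BMDCs (-1.07 ± 0.25, adjusted p = 0.00737) and by 1.26 on the log2 scale in CRE-labelled BMDCs (adjusted p = 0.00388). Trib3 (-0.63 and -0.60), Chac1 (-0.79 and -0.88) and Sesn2 (-0.04 and -0.07) passed this unpaired test in neither label. Trib3 and Chac1 were called lower in both labels with the replicate block described later.

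Aldh18a1 (ENSMUSG00000025007, chr19:40550257-40588463), which makes the proline precursor glutamate semialdehyde, was the ATF4 target that fell most in WT-labelled BMDCs. It went from 19.6, 18.7 and 19.3 FPKM to 6.46, 6.48 and 6.66 FPKM (-1.58 ± 0.22, adjusted p = 0.000302), and in CRE-labelled BMDCs from 19.0, 10.6 and 17.4 FPKM to 7.02, 4.53 and 5.92 FPKM (-1.45 ± 0.22, adjusted p = 0.000693). The replicates within each treated group lay below every control of that label. Shmt2, the mitochondrial serine hydroxymethyltransferase, fell from 37.2, 27.2 and 30.2 FPKM to 14.2, 12.1 and 12.6 FPKM (-1.30 ± 0.16, adjusted p = 0.000144) and by 1.17 on the log2 scale in CRE-labelled cells (adjusted p = 0.000386). Phgdh, which commits glucose carbon to serine, passed in WT-labelled cells (-0.86 ± 0.24, adjusted p = 0.0169) but not in CRE-labelled cells (-0.65 ± 0.24, adjusted p = 0.0668), a difference between labels that did not pass its own test (adjusted p = 0.9999), and with the replicate block described later it was called in both (CRE label -0.65, adjusted p = 0.00855). Asns, asparagine synthetase (-0.38 and -0.37), Psat1 (-0.47 and -0.44) and Mthfd2 (0.34 and 0.33) were not called in the unpaired test. Psat1 was called lower in both labels with the replicate block.

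Herpud1 had the largest fall of any member in WT-labelled BMDCs. It fell from 51.0, 47.5 and 46.6 FPKM to 13.9, 14.8 and 13.8 FPKM (-1.80 ± 0.27, adjusted p = 0.000471), and in CRE-labelled BMDCs from 46.4, 37.5 and 53.3 FPKM to 10.99, 27.0 and 15.5 FPKM (-1.39 ± 0.27, adjusted p = 0.00291). CRE-labelled number 2 kept the highest treated level. The ubiquitin ligase gene Syvn1 (HRD1), in the same pathway of ER-associated degradation, moved the other way in CRE-labelled BMDCs (0.70 ± 0.22, adjusted p = 0.0386) and did not pass in WT-labelled BMDCs (0.49 ± 0.22, adjusted p = 0.118). Edem1, a lectin that hands misfolded glycoproteins to degradation, stood at 0.37 (adjusted p = 0.0684) and 0.39 (adjusted p = 0.0639). Sel1l, the partner of HRD1, stood at 0.15 and 0.16. Syvn1 and Edem1 were called higher in both labels with the replicate block described later.

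Among the regulators, Xbp1 (ENSMUSG00000020484, chr11:5520659-5525893) fell in BMDCs from 120.3, 109 and 112 FPKM to 73.5, 53.8 and 54.1 FPKM under the WT label (-0.94 ± 0.20, adjusted p = 0.00425) and from 114, 69.3 and 114 FPKM to 53.6, 63.9 and 53.0 FPKM under the CRE label (-0.83 ± 0.20, adjusted p = 0.0105). The gene-level count does not separate spliced from unspliced Xbp1. Eif2ak3 fell by 1.08 (adjusted p = 0.00207) and 0.89 (adjusted p = 0.00797) on the log2 scale, from 3.95 to 5.05 FPKM in control to 1.78 to 3.30 FPKM under DMXAA over both labels. Atf5 fell by 0.52 in WT-labelled cells (adjusted p = 0.0379) and stood at -0.50 in CRE-labelled cells (adjusted p = 0.051). It was called lower in both labels with the replicate block described later. Atf4 itself was 165, 167 and 155 FPKM in WT-labelled control BMDCs and 145, 147 and 129.9 FPKM under DMXAA (-0.23 ± 0.15, adjusted p = 0.27), and Ddit3 was 35.97, 50.6 and 41.7 FPKM and then 43.5, 70.7 and 47.6 FPKM (0.31 ± 0.28, adjusted p = 0.463). Under the CRE label Atf4 (-0.26) and Ddit3 (-0.06) did not pass either, and neither did Ern1 or Atf6. ATF4 is regulated mainly in translation, which these libraries do not measure.

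In BMDCs, libraries with the same number in control and DMXAA of a label deviated together, so the numbers pair them. With the number as a replicate block within label, 17 members were called in WT-labelled BMDCs (5 higher, 12 lower) and 18 in CRE-labelled BMDCs (6 higher, 12 lower). Trib3 (-0.70 and -0.76), Chac1 (-0.81 and -0.94), Psat1 (-0.46 and -0.44) and Dnajb9 (-0.39 and -0.47) then fell in both labels, and Edem1 (0.36 and 0.39) and Syvn1 (0.49 and 0.74) rose in both. Phgdh (-0.65, adjusted p = 0.00855) and Atf5 (-0.50, adjusted p = 0.00369) were then also called lower under the CRE label, and Creld2 (0.41, adjusted p = 0.0274) higher. CRE-labelled BMDC number 2 stood apart from the other CRE-labelled BMDCs, with macrophage markers at 2183 CPM in control and 2031 CPM under DMXAA and with neutrophil markers at 352 and 151 CPM. Its chaperone ratios were the highest (median 1.37, against 0.942 to 1.02 in the other pairs). Without that pair of libraries, a setting chosen after seeing the data, 13 members were called under the WT label and 11 under the CRE label. The counts in this paragraph are given without the share over all genes, so they are not a result about the members.

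**Figure D2:**
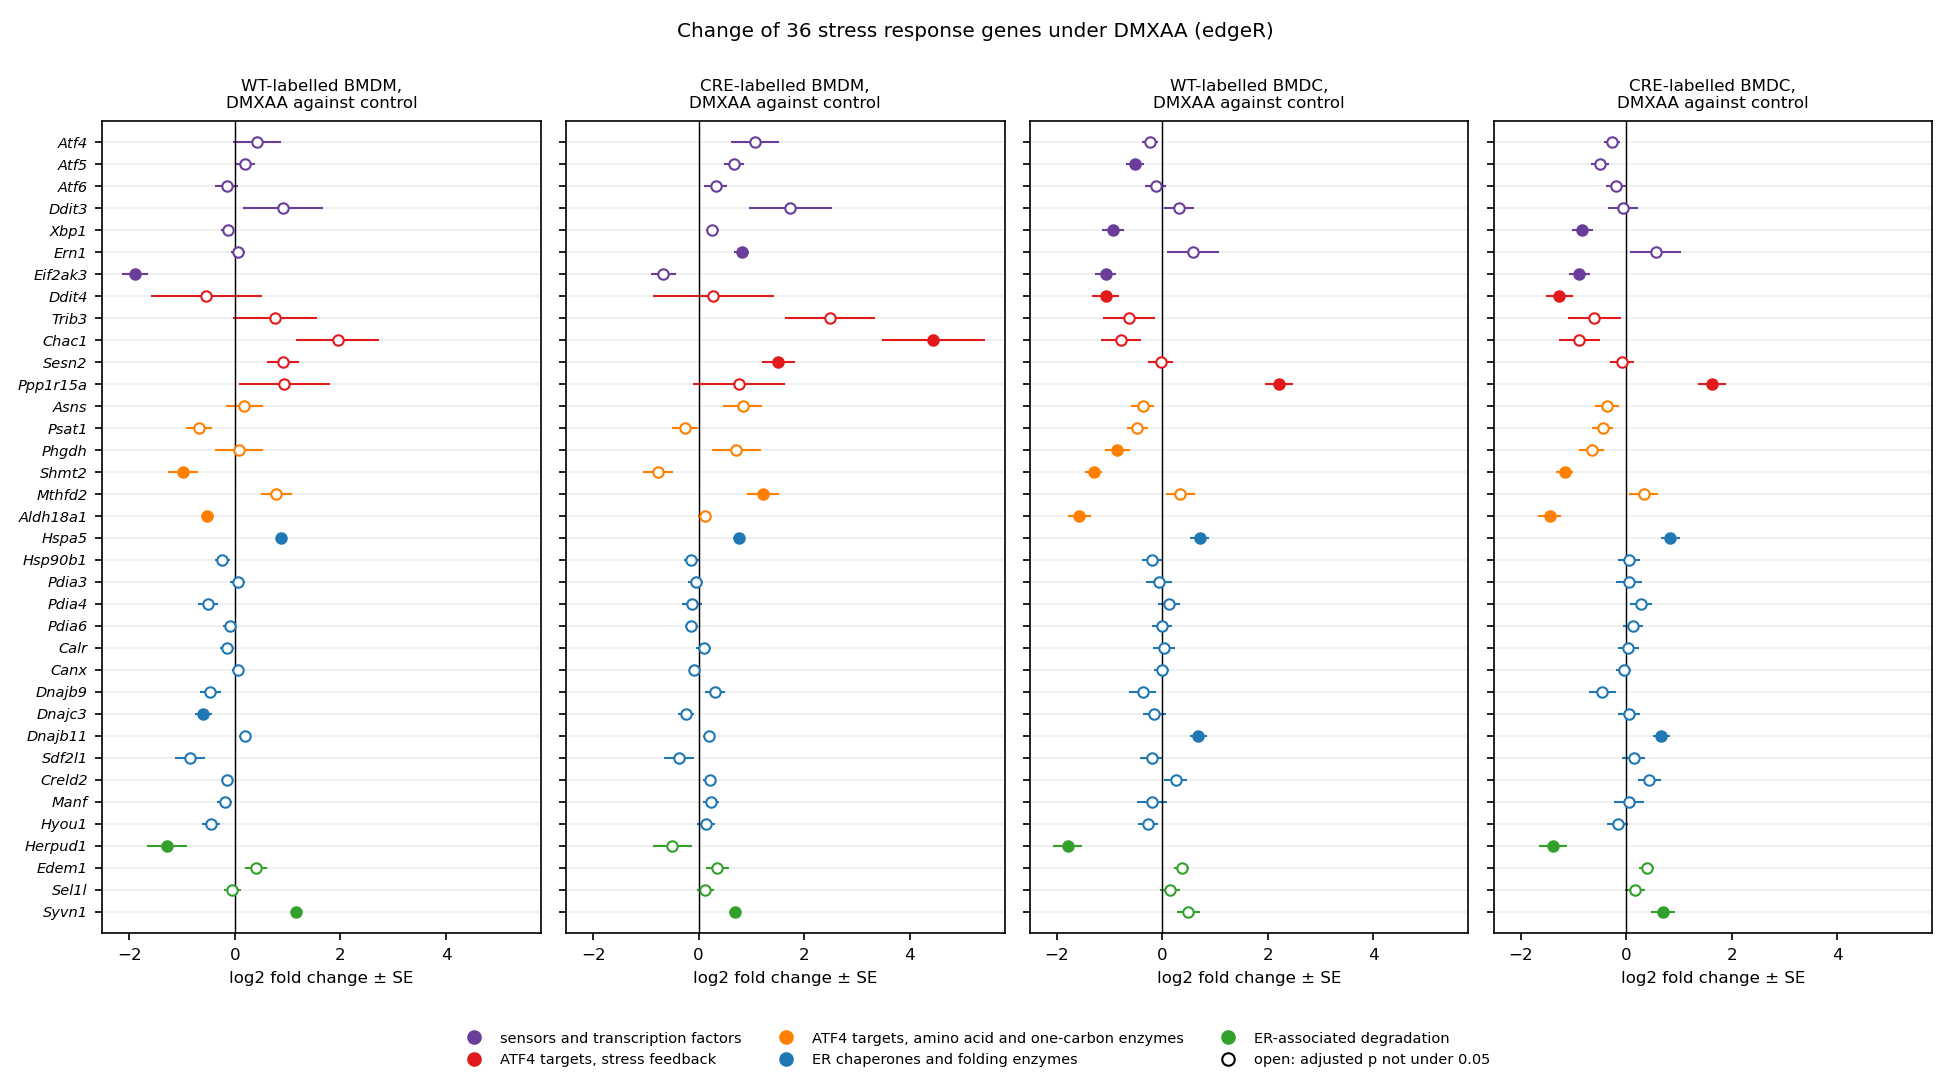
Log2 fold change of DMXAA over control (horizontal axis, bars ± SE from edgeR) for 36 members grouped by role, in separate panels for WT-labelled and CRE-labelled BMDMs (2 libraries a group) and BMDCs (3 libraries a group). Filled points passed the test; in BMDCs most ATF4 targets other than Ppp1r15a lie left of 0 and the chaperones lie near 0 except Hspa5 and Dnajb11.

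No member passed a test between the labels in BMDCs, where the closest library pairs join the labels in both treatments, so that like responses and crossed labels cannot be told apart. The count was 0 of 36 under DMXAA, 0 in control and 0 for the interaction of label and DMXAA, each beside 0% of all genes (0% in each of these 3 comparisons), and at an unadjusted p under 0.05 and by DESeq2 the counts were 0 as well. The 95% intervals of the interaction (CRE response minus WT response, log2) were -0.44 to 0.69 for Hspa5, -1.38 to 0.23 for Ppp1r15a, -0.40 to 1.22 for Herpud1, -0.54 to 0.80 for Aldh18a1 and -0.51 to 0.73 for Xbp1. For Atf4 the interval was -0.49 to 0.42 and for Ddit3 it was -1.25 to 0.51. These bounds, from the fit without the replicate block, leave room for differences of the size of the smaller DMXAA responses.

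In WT-labelled BMDMs numbered 1 and 2, DMXAA raised Syvn1 and Hspa5 and lowered Eif2ak3, Herpud1, Shmt2, Dnajc3 and Aldh18a1. The 2 of 36 members called higher compare with 18.4% of all genes, and the 5 called lower with 20.7%. The median log2 fold change was 0.18 over the ATF4 targets and -0.17 over the chaperones, beside -0.08 over all genes. Hspa5 was 248 and 249.5 FPKM in control and 516 and 474 FPKM under DMXAA (0.88 ± 0.11, adjusted p = 0.00115). Its raw counts were 21449 and 22259 in control and 24676 and 28939 under DMXAA. Library totals were 18197389 and 18912887, then 16470157 and 18731402, so the size of the rise depends on the scaling between libraries. The fold changes of other members rest on the same scaling, and scaling by library total alone was not tested. Syvn1 went from 12.7 and 11.6 FPKM to 30.6 and 28.1 FPKM (1.17 ± 0.11, adjusted p = 0.000445). Eif2ak3 fell from 5.81 and 4.90 FPKM to 1.203 and 1.90 FPKM (-1.89 ± 0.25, adjusted p = 0.00159), Herpud1 from 8.5 and 12.5 FPKM to 2.92 and 6.29 FPKM (-1.29 ± 0.38, adjusted p = 0.0336), and Shmt2 from 18.8 and 25.1 FPKM to 8.504 and 15.3 FPKM (-0.99 ± 0.29, adjusted p = 0.0334). In each of these genes both treated libraries lay on the same side of both controls.

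Most ATF4 pathway transcripts could not be called in WT-labelled BMDMs where the controls lay far apart. Ddit3 was 7.06 and 54.9 FPKM in control and 64.4 and 62.3 FPKM under DMXAA (0.91 ± 0.76, adjusted p = 0.398), and Atf4 was 62.4 and 179 FPKM and then 145 and 205 FPKM (0.42 ± 0.45, adjusted p = 0.518). Control number 2 was the high library for both, and also for Trib3 (3.57 against 28.4 FPKM), Chac1 (0.449 against 3.68 FPKM), Ppp1r15a (4.44 against 39.8 FPKM) and Ddit4 (1.09 against 9.99 FPKM). The pair numbered 1 gave a median DMXAA to control ratio of 6.42 over the 5 stress feedback genes and the pair numbered 2 a ratio of 1.35, and over the 6 enzymes the ratios were 1.06 and 0.813. Number 2 of the WT label is also the pair with raised fibroblast markers, 881 CPM in control and 743 CPM under DMXAA, whose part in the result was not tested. The counts called without a library that follow lack the share over all genes and are not a result about the members. Without WT-labelled control number 2, 17 members were called, 10 higher and 7 lower. Atf4 (1.41, adjusted p = 0.00539), Ddit3 (3.08, adjusted p = 9.24e-05), Trib3 (2.96), Chac1 (4.18), Sesn2 (1.51), Ppp1r15a (3.30), Asns (0.96) and Mthfd2 (1.16) were then among those called higher, and 5 of the 14 chaperones were called lower, namely Sdf2l1 (-1.23), Dnajc3 (-0.80), Pdia4 (-0.75), Hyou1 (-0.67) and Hsp90b1 (-0.40). Herpud1 (-0.95) and Shmt2 (-0.73) kept their sign but did not pass (adjusted p = 0.119 for both). Leaving out WT-labelled DMXAA number 1 instead gave 4 called members.

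In CRE-labelled BMDMs, DMXAA raised 6 of 36 members (7.28% of all genes) and lowered 0 (2.72% of all genes). At an unadjusted p under 0.05, 10 members passed in either direction, and DESeq2 called 8 in either direction. These counts, and those of other fits at the end of this paragraph, lack the share over all genes and are not a result about the members. The median log2 fold change was 0.76 over the ATF4 targets and 0.02 over the chaperones, beside -0.01 over all genes. Chac1 (ENSMUSG00000027313, chr2:119351229-119354381), a glutathione-degrading enzyme whose promoter held the C/EBP-ATF element, went from 0.171 and 0.216 FPKM to 3.93 and 4.84 FPKM, the largest rise (4.45 ± 0.97, adjusted p = 0.0357). Raw counts in these controls were 5 and 7, so the size of this rise rests on values near the floor. Both controls lay under the FPKM minimum of 1, and Chac1 passed the filter only through other libraries. Sesn2 rose from 3.64 and 3.51 FPKM to 10.4 and 10.3 FPKM (1.51 ± 0.31, adjusted p = 0.0306) and the mitochondrial folate enzyme Mthfd2 from 9.12 and 9.28 FPKM to 21.4 and 22.3 FPKM (1.22 ± 0.30, adjusted p = 0.0494). Ern1 rose by 0.82 (adjusted p = 0.0154), Hspa5 by 0.76 (adjusted p = 0.00742) and Syvn1 by 0.69 (adjusted p = 0.0125). Ddit3 (10.4 and 11.6 FPKM, then 36.3 and 37.9 FPKM, 1.73 ± 0.79, adjusted p = 0.215), Atf4 (61.7 and 61.7 FPKM, then 126 and 137 FPKM, 1.07 ± 0.46, adjusted p = 0.192) and Xbp1 (0.26, adjusted p = 0.243) did not pass in a fit that shares its spread with the WT-labelled groups, although for Ddit3 and Atf4 the treated libraries lay above both controls. Fitted on the CRE-labelled libraries alone, 29 members were called, and without any one of these 4 libraries 0 were.

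**Figure D3:**
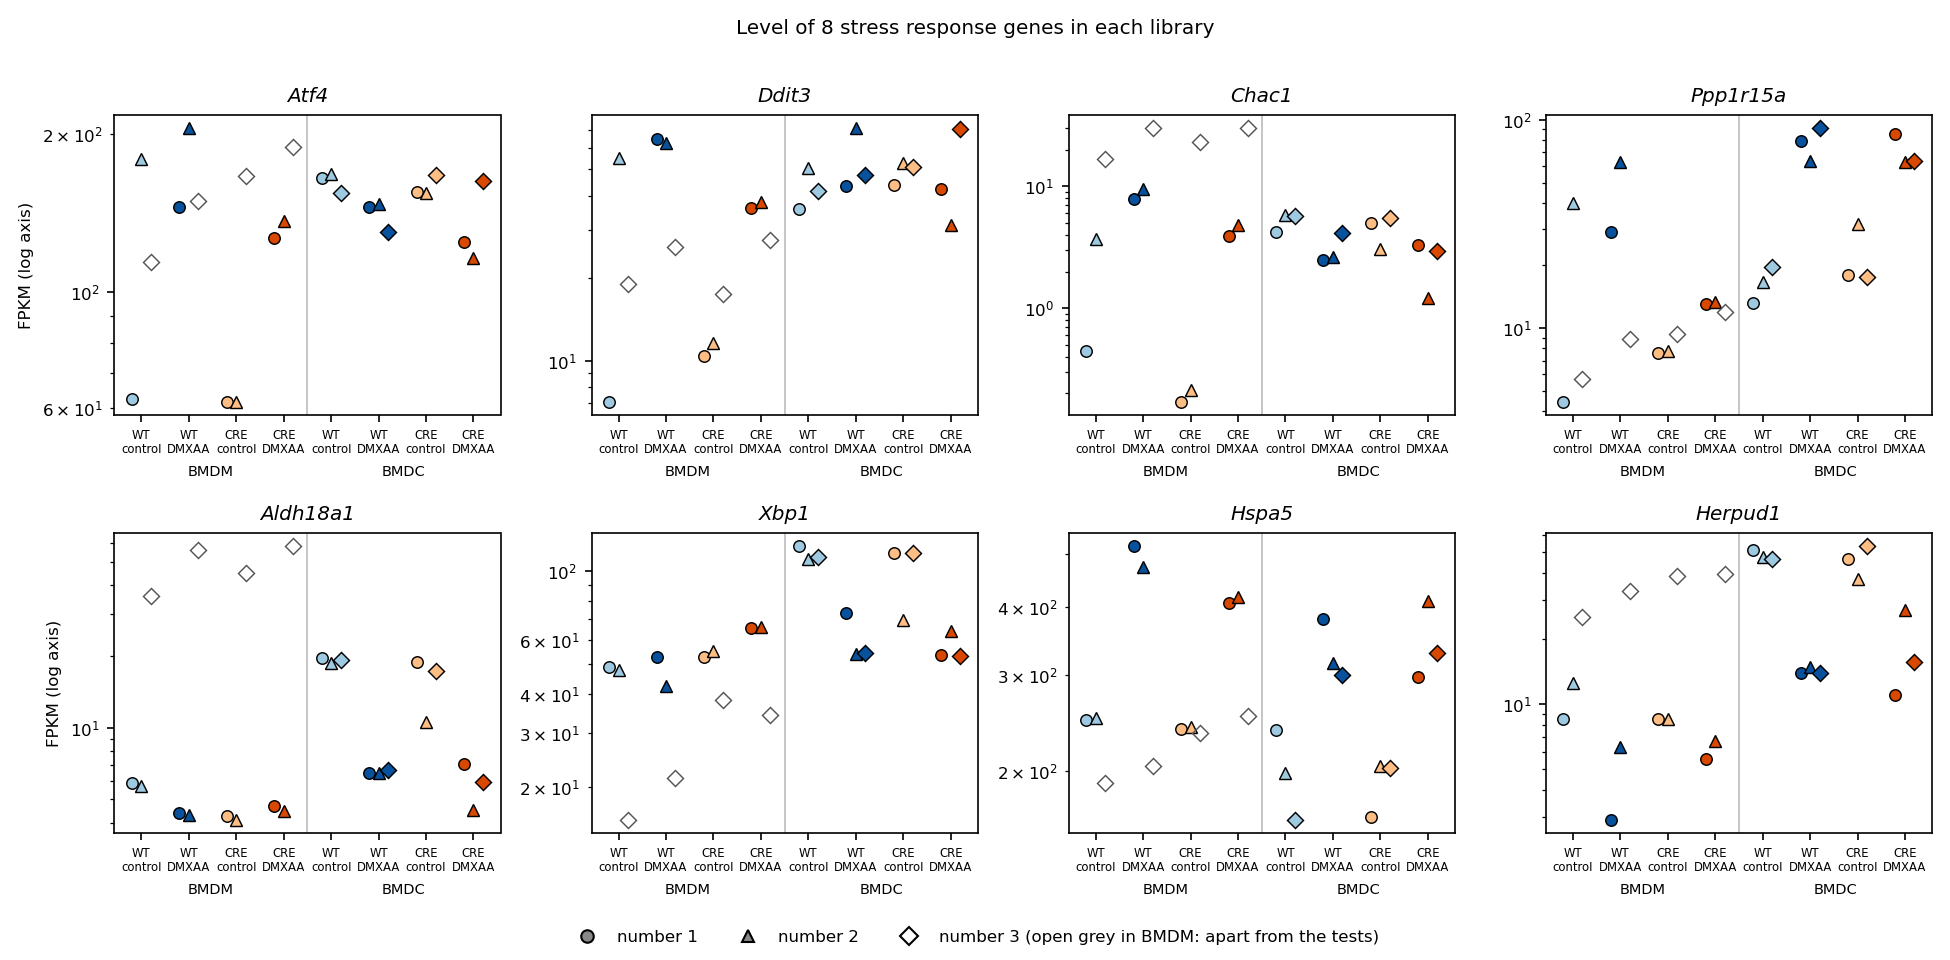
FPKM on a log axis of Atf4, Ddit3, Chac1, Ppp1r15a, Aldh18a1, Xbp1, Hspa5 and Herpud1 in each of the 24 libraries, by cell type, label and treatment (circle, triangle and diamond are numbers 1, 2 and 3, and open grey diamonds are the BMDM libraries numbered 3). WT-labelled control BMDM number 2 lies near the treated BMDM libraries for Ddit3 (54.9 FPKM) and Atf4 (179 FPKM), whereas for Hspa5 it lies with control number 1 (249.5 and 248 FPKM).

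Under DMXAA, 3 of 36 members were higher in CRE-labelled than in WT-labelled BMDMs (9.26% of all genes) and 0 were lower (9.99% of all genes). They were Eif2ak3 (1.19 ± 0.24, adjusted p = 0.019), Dnajb9 (0.77 ± 0.19, adjusted p = 0.0352) and Xbp1 (0.52 ± 0.13, adjusted p = 0.0338). Eif2ak3 was 1.203 and 1.90 FPKM under the WT label and 3.83 and 3.05 FPKM under the CRE label, Dnajb9, an ER DnaJ protein, was 10.7 and 13.6 against 18.4 and 21.7 FPKM, and Xbp1 was 52.5 and 42.5 against 65.3 and 66.0 FPKM. The groups did not overlap. At an unadjusted p under 0.05, 8 members passed in either direction, beside 3911 of 11569 genes. DESeq2 called 5 members. This DESeq2 count and the count that follows lack the share over all genes and are not a result about the members. Without either CRE-labelled DMXAA library 0 members passed.

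In control BMDMs, 0 members passed between labels (0.0432% of all genes in either direction). At an unadjusted p under 0.05, 8 members passed, beside 793 of 11569 genes, and DESeq2 called 3. In this paragraph, counts from DESeq2 and from fits that leave libraries out lack the share over all genes. They are not a result about the members. All 11 ATF4 targets had a negative estimate (CRE minus WT, median -1.22), beside 8 of 14 chaperones positive (median 0.03), but the sizes rest on WT-labelled control number 2. Without it 9 of the 11 were negative, Ppp1r15a stood at 0.77, Psat1 at 0.07, Trib3 at -0.32 and Ddit4 at -0.33, and 0 members were called. Without WT-labelled control number 1, 8 members were called. The interaction of label and DMXAA called 0 members (3.66% of all genes). At an unadjusted p under 0.05, 6 members passed, beside 2354 of 11569 genes, and DESeq2 called 3. The 95% interval of this interaction was -0.48 to 0.23 for Hspa5 and -0.03 to 0.82 for Xbp1. It was -0.87 to 2.17 for Atf4 and -1.75 to 3.40 for Ddit3, so this last pair was hardly bounded. Without WT-labelled control number 1, number 2 or DMXAA number 2, the interaction called 4, 5 and 1 members, and the Ddit3 estimate of 0.82 was 1.63 without control number 1 (adjusted p = 0.0152) and -1.36 without control number 2 (adjusted p = 0.0105). Leaving aside both WT-labelled number 2 libraries, a setting chosen after seeing the data, gave 27 calls in WT-labelled BMDMs, 29 in CRE-labelled BMDMs and 21 for the interaction, but the spread in that fit came only from the close CRE-labelled pairs.

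The BMDM libraries numbered 3, 1 per group and so without a replicate, had a different profile. Chac1 was 16.9 and 23.1 FPKM in their WT-labelled and CRE-labelled controls and 29.9 and 29.9 FPKM under DMXAA. Phgdh was 144 and 173 FPKM in these controls, above every BMDC library and every BMDM library numbered 1 or 2, and Xbp1 was 15.7 and 38.3 FPKM, below every other control. Their Hspa5 ratios of DMXAA to control were both 1.08, against the rise in numbers 1 and 2, and those of Trib3 were 1.86 and 1.42. With number 3 included in the BMDM fit, 0 members were called for DMXAA in either label and 0 between the labels under DMXAA. These counts lack the share over all genes and are not a result about the members.

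**Figure D4:**
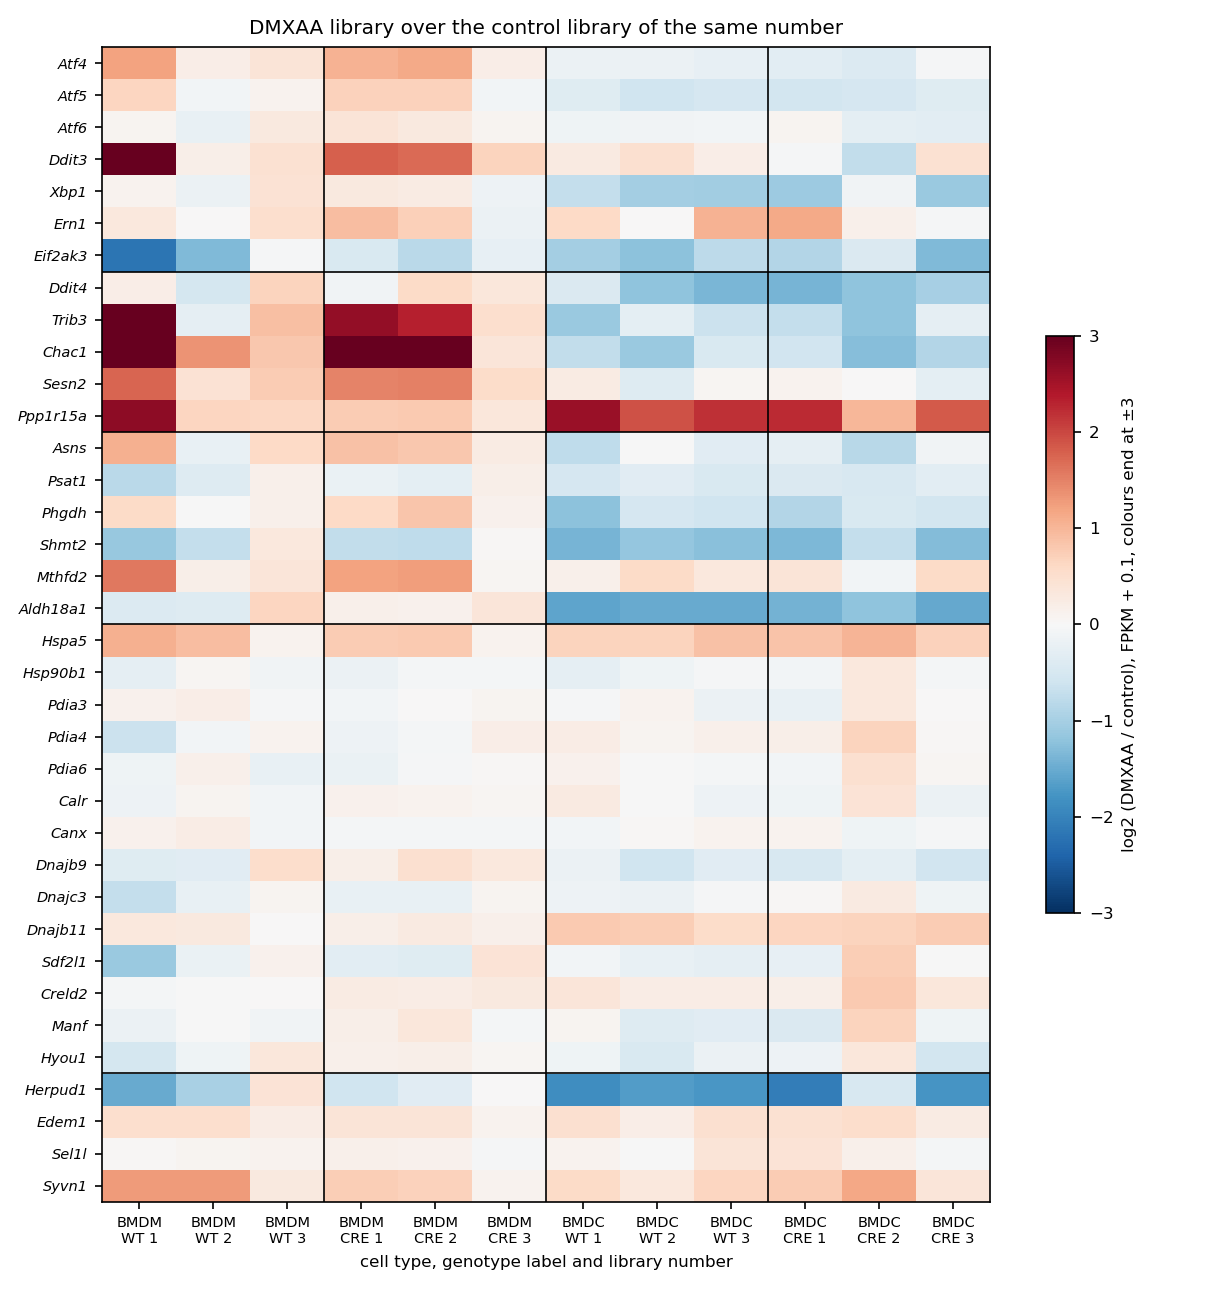
Log2 ratio of DMXAA to control FPKM (0.1 added to each) for 36 members by role (vertical) in the 12 pairs of same-numbered libraries (horizontal), with colours ending at -3 and 3. The stress feedback lines of WT-labelled BMDM number 1 (median ratio 6.42) and of the CRE-labelled BMDMs 1 and 2 (2.80 and 2.87) are mostly red. Those of the BMDC pairs are mostly blue apart from Ppp1r15a and, in several pairs, Sesn2, which lies slightly above 0 there. Most chaperone lines are paler, apart from Hspa5, Dnajb11 in BMDCs (0.56 to 0.78) and Sdf2l1 in WT-labelled BMDM number 1 (-1.12).

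The response itself was compared between the cell types under the WT label. The interaction (BMDC response minus BMDM response) called 0 of 36 members (2.61% of all genes). At an unadjusted p under 0.05, 8 members passed, beside 1817 of 13368 genes, and DESeq2 called 2. The DESeq2 count and the count without a library below lack the share over all genes. They are not a result about the members. The median of the interaction was -0.54 over the ATF4 targets, 9 of 11 of them negative. It was 0.17 over the chaperones, 11 of 14 of them positive, beside 0.08 over all genes. Aldh18a1 came closest to the threshold (-1.03, 95% interval -1.66 to -0.40, adjusted p = 0.0857). The estimate for Chac1 was -2.73 (-4.48 to -0.98, adjusted p = 0.105) and that for Hspa5 was -0.15 (-0.68 to 0.39, adjusted p = 0.932). Without WT-labelled control BMDM number 2, 5 members were called.

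Other genes of the same pathways, from lists longer than the members, gave the following counts under DMXAA. Of 25 further integrated stress response genes tested in BMDCs, 5 rose and 8 fell under the WT label (median -0.54) and 5 rose and 8 fell under the CRE label (median -0.52), while in BMDMs 4 rose and 6 fell of 23 under the WT label and 2 rose and 0 fell under the CRE label. Over all genes, 17% rose and 15.2% fell in WT-labelled BMDCs, 14% and 11.4% in CRE-labelled BMDCs, 18.4% and 20.7% in WT-labelled BMDMs and 7.28% and 2.72% in CRE-labelled BMDMs, so the counts in WT-labelled BMDMs are near the background. Slc7a5, the large neutral amino acid transporter, fell by 3.31 on the log2 scale in WT-labelled BMDCs, Stc2, a secreted glycoprotein, by 1.77, and the interferon-induced eIF2 kinase Eif2ak2 (PKR) rose by 3.01. Slc7a5 was also the gene of this list whose response differed between the cell types (BMDC minus BMDM -3.30, adjusted p = 0.00517), together with Ppp1r15b (-1.15, adjusted p = 0.00594), the constitutive counterpart of Ppp1r15a. Of 12 aminoacyl-tRNA synthetases, enzymes that charge tRNA, 1 rose and 9 fell in BMDCs under each label (medians -0.80 and -0.67), 1 rose and 6 fell in WT-labelled BMDMs (median -0.59), and 1 rose and 0 fell in CRE-labelled BMDMs (median -0.03), with Iars at -1.57 and Yars at -1.14 in WT-labelled cells. The 1 that rose in WT-labelled BMDCs was Wars (1.55), which is also known to be induced by interferon. Of 30 further unfolded protein response genes, 0 rose and 4 fell in WT-labelled BMDCs, among them Txndc11 (-1.35), Creb3l2 (-1.07) and Ero1l (-0.89), and 0 rose and 3 fell in CRE-labelled BMDCs. In BMDMs 2 rose and 6 fell under the WT label, shares at or below those over all genes, and 0 rose and 0 fell under the CRE label.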

How the data were processed

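Libraries of BMDMs and BMDCs were sequenced in 8 groups of 3. According to the submitters' processing notes, the authors used CASAVA 1.8, fastp, HISAT2 2.0.5, featureCounts 1.5.0-p3 and DESeq2 1.20.0 with GRCm38 (mm10). The deposited gene table holds a raw count and an FPKM value per library, which the authors made from those counts with gene lengths. The FPKM did not follow count over library total. In WT-labelled BMDM number 1, Hspa5 had 21449 counts of 18197389 in control and 24676 of 16470157 under DMXAA, but 248.3 and 516 FPKM. FPKM ratios therefore carry a scaling between libraries whose method is not known here. Whether the counting used strand is not given in the sources used here. The table also holds the authors' group means, fold changes and p-values, which were not used. No per-library column was left without a label. A second entry with the symbol Ddit3 had a count of 0 in every library and was left out.

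Counts were scaled by TMM and tested with edgeR 4.0.16 (glmQLFit and glmQLFTest, limma 3.58.1, R 4.3.3), two-sided, with Benjamini-Hochberg adjustment over all genes tested and a call at an adjusted p under 0.05. Genes were kept when FPKM reached 1 in 2 or more of 8 BMDM libraries (numbers 1 and 2), 3 or more of 12 BMDC libraries, or 2 or more of the 20 libraries of both cell types. BMDM number 3 was left out of these fits and used in an alternative. Intervals are 95% and use the t quantile of the fit. The tests were checked on simulated counts. Alternatives were DESeq2 1.42.0, other filters and scaling, replicate blocks, fits on only the groups compared, a fold change minimum and leaving out libraries. Ratios by number used 0.1 added to each FPKM. Python 3.11.15, pandas 2.3.3 and numpy 2.4.6 read the tables, and matplotlib 3.10.9 drew the plots.

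In BMDCs the deviations from group means of same-numbered control and DMXAA libraries correlated at 0.417 to 0.682 (WT label) and 0.553 to 0.692 (CRE label), so the numbers pair libraries within a label, whereas between labels the correlations ran from -0.51 to 0.03. BMDMs had only 2 usable numbers (0.685 and 0.037), too few to decide.

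The members and the longer lists (further integrated stress response genes, aminoacyl-tRNA synthetases, further unfolded protein response genes, ER translocation and glycosylation, cytosolic heat shock, and cell type markers) were chosen with earlier results of these data known, so the counts over them support nothing independently. For each comparison the text names up to 3 members with the largest called rise and fall, plus Atf4, Ddit3, Xbp1 and Hspa5, and up to 3 genes from each longer list with the largest called change in WT-labelled BMDCs; other members are named with their values to account for the list.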

Additional observations from a re-analysis of the deposited data

How the results depend on the processing

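Counts of called members moved by over 1.5 times as follows. The share over all genes is not given beside these counts, so a moved count is not a result about the members. In WT-labelled BMDMs (7 called) they were 14 without a filter, 11 with DESeq2, 3 with only the groups compared, 16 with a replicate block within label, 0 with number 3, 3 at a fold change minimum of 1 on the log2 scale and 4 to 17 leaving out 1 library. In CRE-labelled BMDMs (6 called) they were 13 without a filter, 11 with the replicate block within label, 29 with only the groups compared, 0 with number 3, 3 at the fold minimum and 0 to 0 leaving out 1 library. Between labels under DMXAA in BMDMs (3 called) they were 9 without a filter, 5 with DESeq2, 5 with only the groups compared, 0 with number 3, 1 at the fold minimum and 0 to 3 leaving out 1 library. In control BMDMs (0 called) they were 10 without a filter, 3 with DESeq2 and 0 to 8 leaving out 1 library, and for the BMDM interaction (0 called) 3 without a filter, 3 with DESeq2, 2 with the replicate block within label and 0 to 5. In BMDCs the replicate block within label gave 17 (11 called) and 18 (10 called) for DMXAA under the WT and CRE labels, and the fold minimum 6 and 5. Between resting cell types (11 called) number 3 gave 3, and for the cell type interaction (0 called) there were 3 without a filter, 2 with DESeq2, 1 with only the groups compared and 0 to 5 leaving out 1 library. The replicate block by number moved no count past 1.5 times. Leaving aside WT-labelled BMDM number 2, chosen after seeing the data, gave 27, 29, 26, 11 and 21 calls in the BMDM comparisons in the order above, with the spread taken from the close CRE-labelled pairs. The Ddit3 interaction in BMDMs then turned from 0.82 to -1.35 and its control difference from -1.55 to 0.61, and the interaction was -1.36 without WT-labelled control number 2 and 1.63 without number 1. The cause of these shifts was not tested.

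The BMDM fits rest on 2 libraries a group, and in the ATF4 arm both the WT-labelled controls and, for Ppp1r15a and Ddit4, the WT-labelled DMXAA libraries lie far apart, so a member that missed the threshold there is not shown to be unchanged. Among single members, Hspa5 in WT-labelled BMDCs missed the threshold without WT-labelled control number 3 (adjusted p = 0.0566), Mthfd2 in CRE-labelled BMDMs with the replicate block by number, and Syvn1 in CRE-labelled BMDCs under several alternatives.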

Other observations

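Among the cytosolic heat shock genes, whose products fold protein outside the ER, 5 of 13 tested rose and 1 fell in WT-labelled BMDCs under DMXAA (median 0.32), and 3 rose and 0 fell in CRE-labelled BMDCs (median 0.23). In WT-labelled BMDMs 5 of 14 rose and 1 fell (median 0.08), and in CRE-labelled BMDMs 2 rose and 0 fell (median 0.34). Over all genes tested, 17% rose and 15.2% fell in WT-labelled BMDCs, 14% and 11.4% in CRE-labelled BMDCs, 18.4% and 20.7% in WT-labelled BMDMs and 7.28% and 2.72% in CRE-labelled BMDMs. Hspa1b rose by 5.32 ± 0.76 (SE, log2, edgeR adjusted p = 0.000351) and Hspa1a by 4.24 ± 0.61 (adjusted p = 0.000371) in WT-labelled BMDCs, and by 4.07 (adjusted p = 0.00172) and 3.21 (adjusted p = 0.00215) in CRE-labelled BMDCs. Hspa1a and Hspa1b are near-identical copies, so the split of reads between them is uncertain. In BMDMs Hspa1b rose by 3.63 under the WT label (adjusted p = 0.0224) and stood at 2.83 under the CRE label (adjusted p = 0.121). Dnaja1, a cytosolic co-chaperone, rose by 0.94 in WT-labelled BMDCs, 0.93 in CRE-labelled BMDCs, 1.61 in WT-labelled BMDMs and 1.07 in CRE-labelled BMDMs.

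Genes of ER translocation and glycosylation, which bring new protein into the ER, gave 1 rise and 3 falls among 26 tested in WT-labelled BMDCs, 1 rise and 0 falls in CRE-labelled BMDCs, 2 rises and 5 falls in WT-labelled BMDMs and 1 rise and 1 fall in CRE-labelled BMDMs, shares near or below those over all genes. Srpr, the signal recognition particle receptor, rose by 0.69 in WT-labelled BMDCs (adjusted p = 0.00646), 0.63 in CRE-labelled BMDCs (adjusted p = 0.0131), 0.79 in WT-labelled BMDMs (adjusted p = 0.00215) and 0.61 in CRE-labelled BMDMs (adjusted p = 0.0193). Spcs3, a signal peptidase subunit, fell by 0.68 in WT-labelled BMDCs (adjusted p = 0.0457) and by 0.85 in WT-labelled BMDMs (adjusted p = 0.00183), and Rpn1, a subunit of the oligosaccharyltransferase, fell by 0.68 (adjusted p = 0.0322) and by 0.54 (adjusted p = 0.0138). Between labels or cell types, these lists were compared only gene by gene. In BMDMs under DMXAA, CRE against WT, 2 of 14 heat shock genes were higher and 1 lower. Of 26 ER translocation genes 2 were higher and 0 lower (9.26% and 9.99% of all genes). At rest, BMDCs against BMDMs, heat shock gave 1 higher and 3 lower, and ER translocation 3 higher and 2 lower (13.1% and 15.4% of all genes). The other such comparisons called 0 in both lists.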
